A study of Mus musculus with 4 samples.

Results

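Proteasome genes were examined on expression arrays of whole skin from newborn mice that lack loricrin, a structural protein of the cornified envelope of the epidermis, and from wildtype mice. Members were taken by name: every gene whose symbol in the platform annotation begins with Psma, Psmb, Psmc, Psmd, Psme, Psmf or Psmg and which has a probe set that names no other gene. This gave 48 genes among 13674 named genes in all. The first of 2 array types carried 46 of its 8251 named genes, and the second carried 6 of 7542. Psmb11 and Psmf1 were on the second type only, while Psmb1, Psmb5, Psmc6 and Psmd5 were on both. Both genotypes were of strain FVB/N and were sampled at postnatal day 0, with no treatment named. The labels do not give the knockout allele or say whether RNA was pooled, and they do not say whether the array titled a replicate held RNA of another animal. Each genotype had 1 array on each type.

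The proteasome is the large protease that degrades ubiquitin-tagged proteins in the cytosol and nucleus. Its core particle is a barrel of outer alpha rings, which gate the entrance, and inner beta rings, which carry the active sites. The regulatory particle caps the barrel: ATPase subunits unfold the substrate, and non-ATPase subunits of its base and lid bind and remove ubiquitin. Interferon signals and immune cells replace the active beta subunits Psmb5, Psmb6 and Psmb7 with Psmb8, Psmb9 and Psmb10 in a form called the immunoproteasome, which favours peptides for antigen presentation. Other members are activator caps, an inhibitor and chaperones of assembly.

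Loricrin itself read 2013 in the knockout against 41224 in the wildtype, 20.5-fold lower, on the first type. It was not measured on the second. Signals are the authors' array intensities on a linear scale, brought to an equal trimmed mean on the 2 arrays of a type. Values under a floor, 77.6 for the first type and 133 for the second, were set to that floor for the log2 ratio of knockout over wildtype. With 1 array per genotype and type there is no replicate error within a type and no test, so a gene is described as past the rule of size only where it differed by at least 1.5-fold. The bacterial spike-in probe sets had mean log2 ratios of -0.69 (first type) and -0.65 (second). Directions are therefore relative to the typical gene. Under spike-in scaling no member measured on the first type had a ratio below 0. Every lower value given for a member on that type thus holds only under the scalings that centre on the typical gene. The source of the spike-in offset was not tested. The arrays also differed in sex-linked RNA. On the first type Xist read 857 in the knockout against 24.7 in the wildtype, and the Y-linked Kdm5d read 12.2 and 976 on the second, so that sex and genotype cannot be told apart.

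The upstream sequences of 4 members are shown because their values anchor the comparison: Psmc6, lower in the knockout on both array types, Psmb3, the member with the lowest ratio on the first type, Psmb5, close to equal on both, and Psmb9, which shares its upstream region with the peptide transporter gene Tap1. They are RefSeq sequences of build GRCm38.p6 and end at the base before the annotated start of the gene. In the first 3, capitals mark matches on either strand to TGANNNNGC, the core of the antioxidant response element, to which the proteasome gene activator Nfe2l1 and its relative Nfe2l2 are known to bind. In Psmb9, capitals mark a CCAAT box on the other strand.
Psmc6, chr14:45329574-45329823, plus strand: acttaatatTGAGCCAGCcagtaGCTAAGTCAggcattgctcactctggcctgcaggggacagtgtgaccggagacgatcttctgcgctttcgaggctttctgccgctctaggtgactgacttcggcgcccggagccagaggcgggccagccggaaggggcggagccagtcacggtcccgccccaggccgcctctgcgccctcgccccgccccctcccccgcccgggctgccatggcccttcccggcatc
Psmb3, chr11:97703184-97703433, plus strand: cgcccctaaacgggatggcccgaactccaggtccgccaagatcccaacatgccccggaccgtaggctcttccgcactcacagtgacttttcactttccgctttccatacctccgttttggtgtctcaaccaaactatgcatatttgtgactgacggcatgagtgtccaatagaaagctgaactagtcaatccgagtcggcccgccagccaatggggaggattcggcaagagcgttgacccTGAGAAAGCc
Psmb5, chr14:54617996-54618245, minus strand: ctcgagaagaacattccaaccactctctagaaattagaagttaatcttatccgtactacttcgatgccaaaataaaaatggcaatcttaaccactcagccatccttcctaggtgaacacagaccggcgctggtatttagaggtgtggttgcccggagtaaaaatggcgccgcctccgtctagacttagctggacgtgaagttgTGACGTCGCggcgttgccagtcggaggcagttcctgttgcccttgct
Psmb9, chr17:34187331-34187555, minus strand: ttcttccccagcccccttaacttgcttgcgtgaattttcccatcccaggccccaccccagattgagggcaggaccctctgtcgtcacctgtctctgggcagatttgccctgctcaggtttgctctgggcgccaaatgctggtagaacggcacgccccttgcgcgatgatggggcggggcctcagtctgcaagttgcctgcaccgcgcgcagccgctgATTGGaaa
The Psmb9 stretch is the whole interval of 225 bases between the starts of Psmb9 and Tap1, which are transcribed away from each other.

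Promoter sequences were matched for 41 of the 48 members. TGANNNNGC occurred in the 250 bases before the start in 18 of their 44 promoters, or 40.9%, and in 35.2% of 32851 promoters in all. The stricter form TGACNNNGC, which is contained in it, was found in 5 of 44 (11.4%) against 10.2% of all. CCAAT occurred in 16 of 44 (36.4%) against 33.8%. The matches in Psmc6 began 241 and 227 bases before the start, that in Psmb5 47 bases before it and that in Psmb3 10 bases before it. A match is a description of the letters only. Psmb3 and Psmc6, lower in the knockout, and Psmb5, with nearly equal signals, all had at least 1 match to TGANNNNGC. Psmb9 also had a match to it, and Psmb3 also held CCAAT, neither of which is in capitals above.

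With the arrays at an equal trimmed mean, most proteasome genes differed by less than 1.5-fold. On the first array type 44 of the 46 members lay within 1.5-fold. Psmg2 was past it in the higher direction, where 4.44% of all named genes lay, and Psmb3 in the lower direction, where 5.11% lay. No member reached 2-fold. Under spike-in scaling 23 members were past 1.5-fold higher and 0 lower, beside 3544 of the 8251 named genes higher. The median log2 ratio of the 46 was -0.04 and that of all named genes was 0, and under spike-in scaling these were 0.58 and 0.48. Both signals of 43 members were above the floor. Of these, 27 had a ratio below 0, against 46.9% of the 5403 named genes with both signals above the floor. Psmb9, Psmc4 and Psmd2 were below the floor on both arrays, so their ratio of 0 is no measurement.

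**Figure D1:**
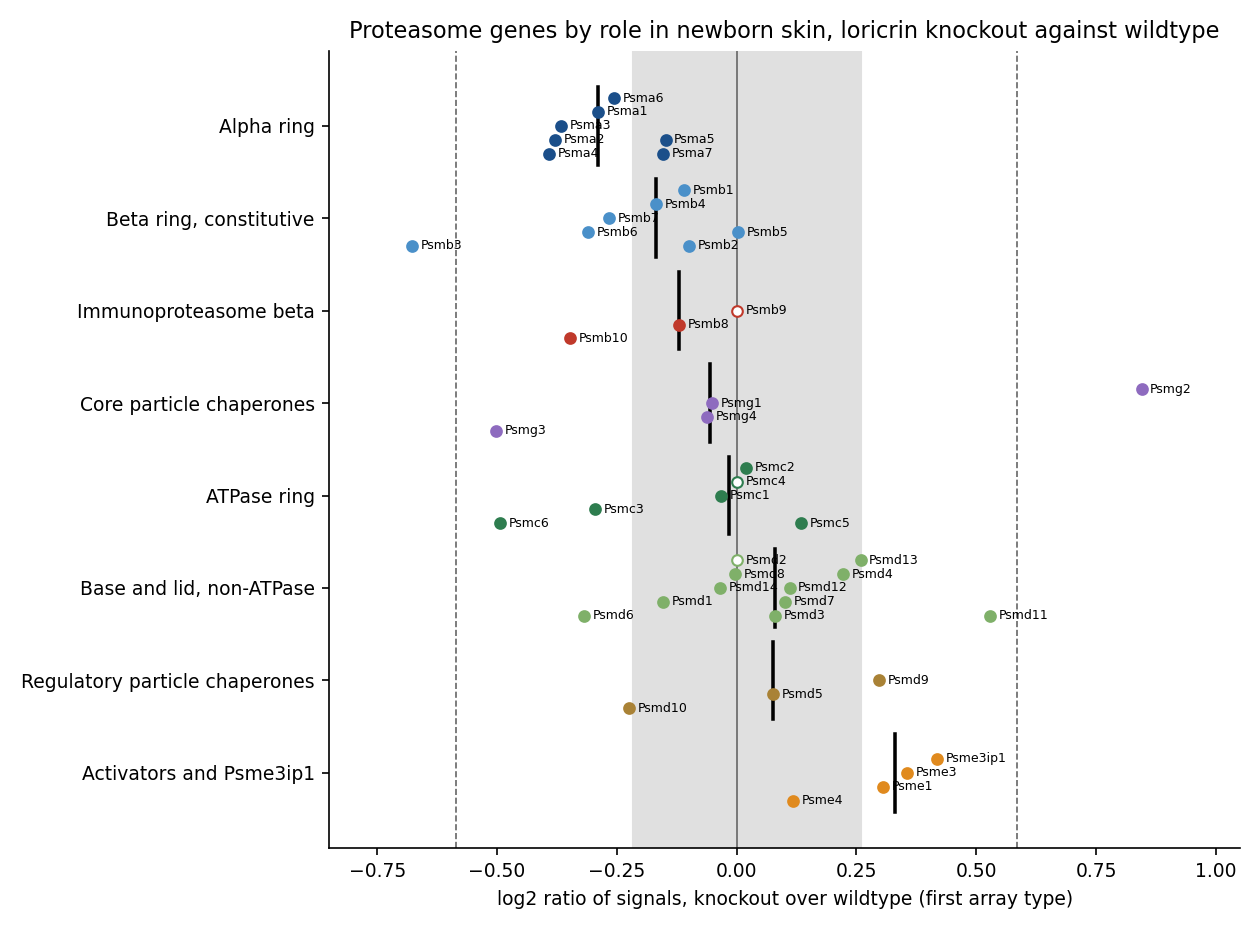
Log2 ratio of signals (horizontal axis, knockout over wildtype, first array type) of 45 proteasome genes in rows by role, 1 point per gene. Black bars are row medians, open points are genes below the floor on both arrays, the grey band spans the 25th to 75th percentile of all named genes above the floor (-0.22 to 0.26), and dashed lines mark 1.5-fold. Alpha ring points all lie left of 0, and the points of the activators and Psme3ip1 all lie right of it.

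The alpha ring stood on the lower side as a group. All 7 measured alpha subunits, which form the gate and the docking surface for the caps, read lower in the knockout, with log2 ratios from -0.39 to -0.15 and a median of -0.29. Psma4 read 3098 in the knockout against 4063 in the wildtype, a ratio of -0.39. Psma2 read 6797 and 8839 (-0.38). These are differences of at most 1.31-fold, and no alpha subunit passed 1.5-fold.
Psma3 read 8537 and 11010 (-0.37) on a probe set with a suffix for shared sequence, and Psma1 read 875 and 1069 (-0.29). Psma6 read 7779 and 9284 (-0.26). The smallest differences in the ring were those of Psma7, with 3373 and 3754 (-0.15), and Psma5, with 2011 and 2229 (-0.15).

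The constitutive beta ring ran from -0.68 to 0.0035, with a median of -0.17, and 6 of its 7 genes were below 0. Psmb3, a structural beta subunit without an active site, read 2608 in the knockout against 4169 in the wildtype. Its log2 ratio of -0.68, or 1.60-fold lower, was the 1 core particle value past the rule of size. Under spike-in scaling its ratio was 0.010.
The active subunits were closer together. Psmb6, which cuts after acidic residues, read 2814 and 3488 (-0.31). Psmb7, which cuts after basic residues, read 3269 and 3933 (-0.27). Psmb5, which cuts after hydrophobic residues, read 3021 and 3013, a ratio of 0.0035 on its brightest probe set and 0.13 on a dimmer one. Psmb6 and Psmb7 thus had the lower signal in the knockout, and the Psmb5 signals were nearly equal.
Of the remaining structural subunits, Psmb4 read 6621 and 7436 (-0.17), Psmb1 read 3337 and 3600.5 (-0.11) and Psmb2 read 2115 and 2267 (-0.10). A second Psmb1 probe set gave -0.08. The Psmb4 value comes from a probe set with a suffix for shared sequence, and was -0.02 under quantile normalization and 0.012 under loess. Its probe set without a suffix read 74.4, below the floor, and 107, a log2 ratio of -0.46 or lower.

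Taken as 1 set, a grouping formed after the values were seen, the alpha and constitutive beta genes held 13 of 14 ratios below 0, beside the 46.9% of named genes given above, with a median of -0.26. Named genes with a mean signal of 1000 or more, the range in which 13 of these 14 lie, had 800 of 1662 ratios below 0 and a median of 0.02. The core particle median was -0.15 under both quantile normalization and loess, and 0.43 under spike-in scaling. Under spike-in scaling all 14 ratios were above 0, beside a median of 0.70 for named genes above the floor.

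Whole skin mixes cell types, and with arrays of whole tissue fewer cells of a type and less RNA per cell cannot be told apart. On the first array type 10 of 12 dermal fibroblast markers were at least 1.5-fold lower in the knockout, beside 5.11% of all named genes. For 4 of these 10 the knockout signal was below the floor. The other 2 were nearly equal: Dcn with 2462 (knockout) and 2556 (wildtype), a ratio of -0.05, and Col1a2 with 1082 and 1076 (0.0070). The lower signal was thus not shared by all markers of the list. The summed signal of the 12 was 5150 in the knockout and 11243 in the wildtype. Red cell markers summed to 5587 and 21908, with 4 of 7 past 1.5-fold lower. For 2 of these 4, Alas2 and Car2, the knockout signal was below the floor. The other 3 of the 7 were below the floor on both arrays. Keratinocyte markers summed to 87709 and 119809, with 2 of 12 past 1.5-fold higher and 1 lower. The basal keratins Krt5, Krt14 and Krt15 were below the floor on both arrays of this type. Krt15 was bright on the second type, with signals of 26582 (knockout) and 22304 (wildtype), a ratio of 0.25. Its low signals on the first type thus do not show that its RNA was absent. Krt5 and Krt14 were not measured on the second type. The part of these marker differences in the proteasome values was not tested.

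The 2 immunoproteasome subunits that could be measured were lower in the knockout by less than 1.5-fold, and higher under spike-in scaling (0.57 for Psmb8 and 0.34 for Psmb10). Psmb8 read 150 in the knockout against 163 in the wildtype, a log2 ratio of -0.12, beside 0.0035 for its counterpart Psmb5. Psmb10 read 385 and 490 (-0.35), beside -0.27 for Psmb7. Psmb9 read 36.8 and 21.7, both below the floor, and its counterpart Psmb6 stood at -0.31.
The mean log2 ratio of the 3 immunoproteasome genes exceeded that of their counterparts by 0.04, and was below it under spike-in scaling (-0.19). That difference rests on the ratio of 0 given to Psmb9: without the pair of Psmb9 and Psmb6 it was -0.10, while a floor at the 20th percentile, where Psmb9 enters with its own signals, gave 0.29. On the pairs measured in both arrays, the immunoproteasome gene was lower than its counterpart by 0.12 for Psmb8 and by 0.08 for Psmb10. Psmb8 was dim: under a floor at the 60th percentile both its signals fell below the floor, which left no measured difference for that pair. None of the 3 immunoproteasome genes was listed on the second array type. Psmb11, the beta subunit of the thymus form, was on the second type and read 68.1 and 73.0, both below the floor.

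Other genes of antigen processing came from a list of 14. Of 11 measured on the first type 2 were past 1.5-fold higher and 0 past it lower, beside 4.44% and 5.11% of all named genes. The transporter subunit Tap2, Irf1 and Calr were below the floor on both arrays. Of the other 8 genes, 5 had a ratio above 0 and 3 below, with a median of 0.32. Tap1, the peptide transporter subunit that shares the upstream region of Psmb9, read 283 in the knockout against 187 in the wildtype (0.60), but on the second type its signals of 88.4 and 95.5 were both below the floor. The disulfide isomerase Pdia3 of the peptide loading complex read 1538 and 998 (0.62). Tapbp, which bridges transporter and class I molecule, stood at 0.53, H2-K1 at 0.40 and B2m, the light chain of class I, at -0.32.
Immune cells are known to hold the immunoproteasome without an interferon signal. Of 17 immune cell markers measured 11 were above the floor on both arrays. The summed signal of all 17 was 7520 in the knockout and 8478 in the wildtype. Of the 11, 6 had a ratio below 0, with Cd52, Coro1a and Lyz2 past 1.5-fold lower, beside 5.11% of all named genes. The other 5 had a ratio above 0: Laptm5 (0.24), Cd74 (0.16), Csf1r (0.20), Cd68 (0.26) and Thy1 (0.18). The T cell markers Cd3e and Cd3g were below the floor on both arrays. The part of these cells in the Psmb8 and Psmb10 values was not tested.

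Subunits of the regulatory particle were spread on both sides of 0. The ATPase ring had 3 genes below 0, 2 above and Psmc4 below the floor, with a median of -0.02. Psmc6 read 5866 in the knockout against 8257 in the wildtype (-0.49), the lowest ratio of the ring. Psmc3 read 2111 and 2590 (-0.29), and its other 2 probe sets gave -0.37 and -0.34. Each of the Psmc3 probe sets carries a suffix for shared sequence, so they may not be separate measures.
Psmc1 read 1633 and 1671 (-0.03), Psmc2 read 2994 and 2954 (0.02) and Psmc5 read 3372 and 3072 (0.13). These 3 ATPase genes were within 1.10-fold of equality. The base and lid subunits without ATPase activity had a median of 0.08 over 11 genes, with none past 1.5-fold. Psmd11, a lid scaffold subunit, read 3899 and 2703 on its brightest probe set (0.53). Its other 2 probe sets gave 0.10 and 0.08, so the larger value was not repeated on the same arrays.
Psmd13 of the lid read 1868 and 1561 (0.26), and the ubiquitin receptor Psmd4 read 3238 and 2777 (0.22). At the other end were the lid subunit Psmd6, with 3514 and 4381 (-0.32), and Psmd1, a large scaffold of the base, with 2044 and 2273 (-0.15). The deubiquitinase of the lid, Psmd14, read 1957 and 2004 (-0.03). Psmd3, Psmd7, Psmd8 and Psmd12 had ratios between -0.0030 and 0.11, and Psmd2, a scaffold of the base, was below the floor. In all, 8 of the 17 ATPase and non-ATPase genes were above 0 and 7 below, with a median of 0 (0.68 under spike-in scaling).

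**Figure D2:**
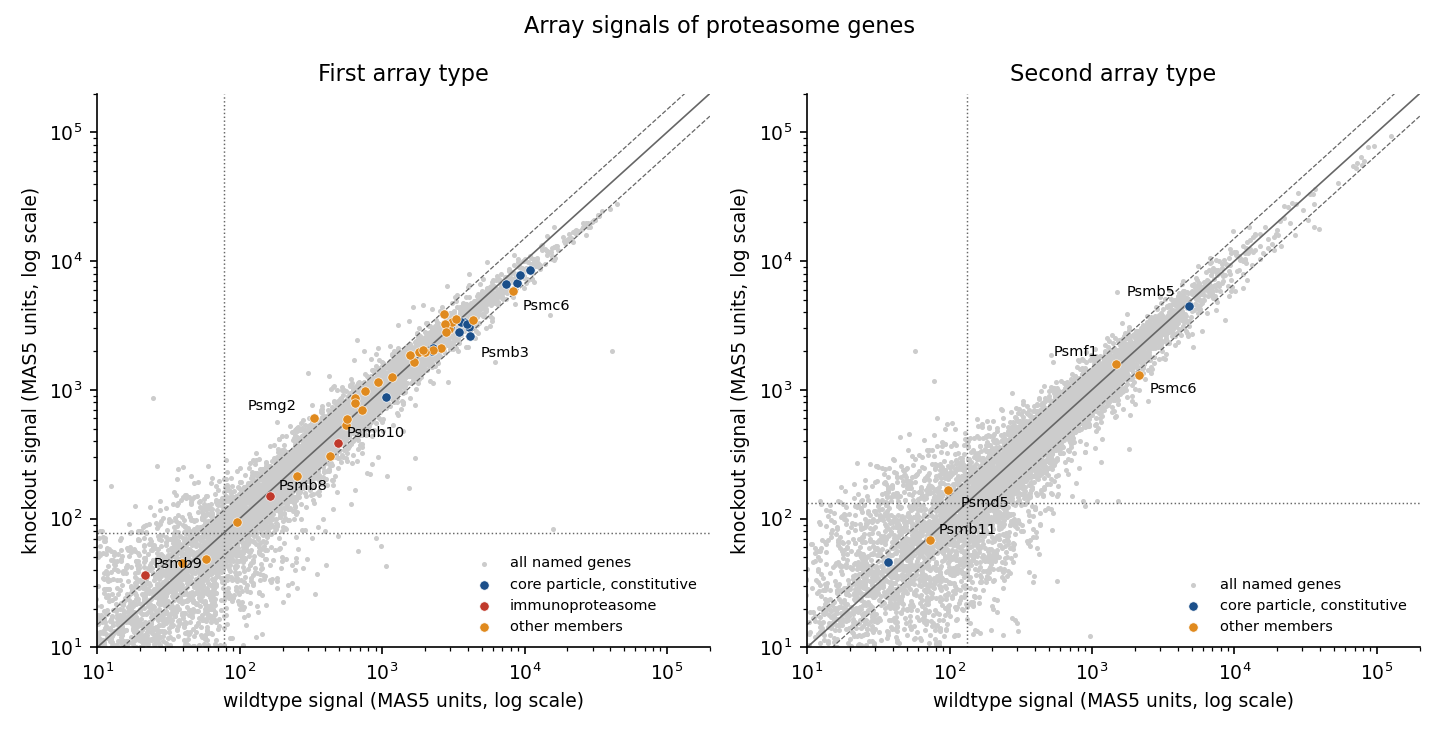
Knockout signal against wildtype signal on log axes starting at 10 MAS5 units for each array type, 1 point per gene, with proteasome genes coloured and all named genes grey. The solid line is equality, dashed lines are 1.5-fold and dotted lines are the floors of 77.6 and 133. Core particle genes on the first type lie mostly just under the line of equality, Psmb8 and Psmb10 lie above both floor lines and just under equality, and Psmb9 lies below both floor lines. Signals under 10 are not shown.

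The members of the activator caps, grouped with Psme3ip1, were on the higher side. Psme1, a subunit of the interferon-inducible cap, read 1158 in the knockout against 936 in the wildtype (0.31). Psme3, the subunit of the nuclear cap, read 973 and 760 (0.36), and Psme3ip1, which encodes a protein that binds Psme3, read 863 and 646 (0.42). Psme4, a large single-chain cap, read 1265 and 1166 (0.12).
All 4 ratios were above 0, beside 2871 of the 5403 named genes with both signals above the floor. Their median was 0.33 (0.27 under quantile normalization, 0.26 under loess and 1.02 under spike-in scaling). None passed 1.5-fold under equal trimmed means. The partner of Psme1, Psme2, has no probe set of its own. The probe set that names Psme2 and Psme2b together, outside the naming rule, read 1222 and 1294 (-0.08), on the other side of 0 from Psme1. The inhibitor Psmf1, on the second type, read 1590 and 1484 (0.10). Another probe set gave 0.11, and the remaining one, with its knockout signal below the floor, read 53.3 and 205, a log2 ratio of -0.63 or lower.

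Assembly chaperones were widely spread. Psmg2, of the pair that starts the alpha ring, read 601 in the knockout against 335 in the wildtype, a log2 ratio of 0.85 or 1.80-fold higher, the highest of all members. Its partner Psmg1 read 534 and 554 (-0.05). Psmg4 read 698 and 729 (-0.06). Its partner Psmg3 read 306 and 434 (-0.50), but a dimmer probe set gave 0.36, so its direction is not settled.
In the first pair only Psmg2 was past 1.5-fold. Pomp, the chaperone that joins the beta subunits and closes the barrel, carries no Psm symbol. It read 3773 in the knockout against 5677 in the wildtype, a ratio of -0.59, just past 1.5-fold lower. Among chaperones of the regulatory particle, Psmd9 read 794 and 646 (0.30), Psmd5 read 599 and 568 (0.08) and Psmd10 read 216 and 252 (-0.22). Psmc3ip, a recombination factor that is a member by its symbol alone, read 94.8 and 95.4, just above the floor.

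On the second array type 1 of 6 members was past 1.5-fold lower, where 7.94% of all named genes lay, and none was past it higher, where 6.76% lay. Psmc6 was that gene. It read 1314 in the knockout against 2154 in the wildtype, a log2 ratio of -0.71, after -0.49 on the first type. Psmb5 read 4457 and 4796 (-0.11). Psmd5 read 166 against a wildtype signal of 98.0 below the floor, at least 1.24-fold higher. Psmb1 read 46.2 and 37.1, both below the floor there.
Psmc6 was thus lower in the knockout in 2 of 2 types, through different probe sets. In limma with the array type as a block, fitted over 1250 genes on both types, its mean log2 ratio was -0.60 (SE 0.23), with an unadjusted p of 0.0300 and an adjusted p of 0.586. Over its alternatives the adjusted p ran from 0.165 to 0.9995. Limma found 0 genes, or 0%, past an adjusted p of 0.05 and 103 at an unadjusted p under 0.05, so the Psmc6 difference did not pass the correction. Its rank by p was 60. Of the 1250 genes 707 had ratios of the same sign on both types. At least 1.5-fold lower on both types were 10, and Psmc6, 1.41-fold lower on the first type, was not among them. Under spike-in scaling the mean was 0.065, from 0.19 for the first type and -0.06 for the second. Under loess the ratio on the first type was -0.31. Nothing in the labels says that arrays came from separate animals, so these p-values rest on the disagreement between array types. With 1 residual and 7.10 prior degrees of freedom, the SE comes mostly from disagreement pooled over all genes fitted, not from that of Psmc6. Psmb5 had a mean of -0.05 (SE 0.23), with an adjusted p from limma of 0.960. No test is given for Psmd5, which entered the fit on the second type through its knockout signal alone. Psmb1 was left out of the fit because it was below the floor on the second type.

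**Figure D3:**
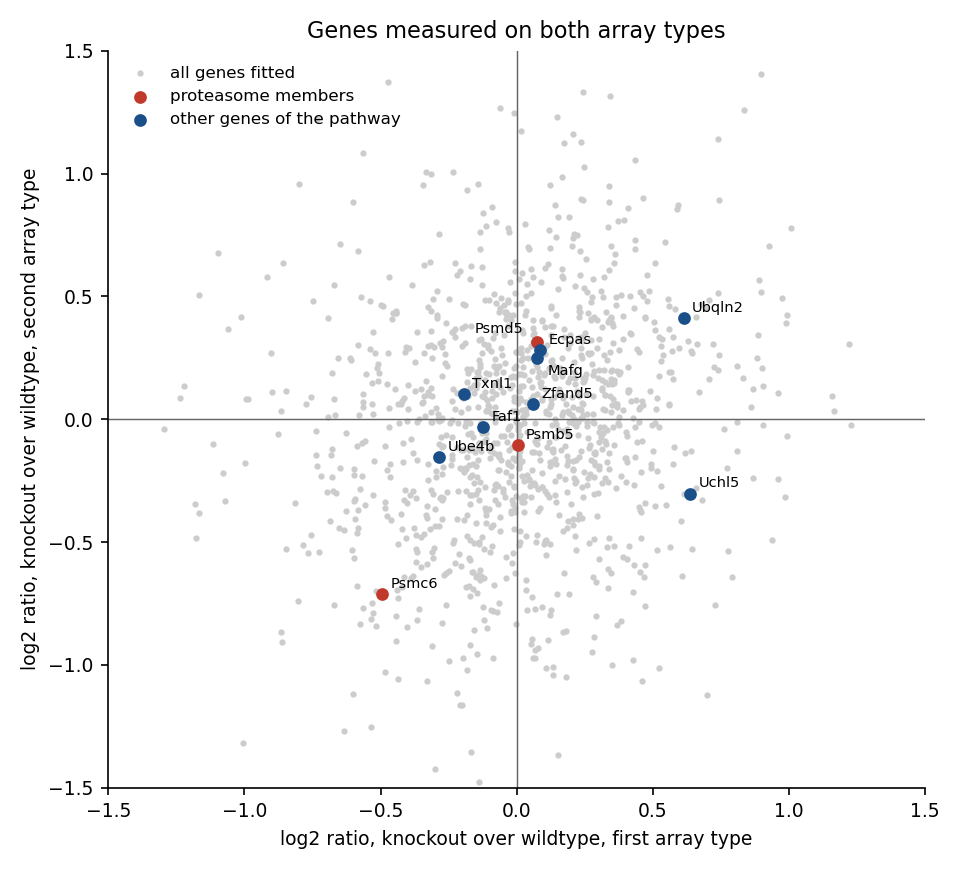
Log2 ratio of knockout over wildtype on the second array type (vertical axis) against that on the first (horizontal axis) for genes measured on both, 1 point per gene. Psmc6 lies in the lower left at -0.49 and -0.71, Psmb5 lies near the origin, and Uchl5 has opposite signs. The axes show 1235 of the 1250 genes.

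Beyond the members, genes that work with the proteasome were taken from lists. Of 15 bound factors and shuttles, 10 were measured on the first type, with 2 past 1.5-fold higher, 1 lower (Pomp) and a median of 0.02. Among all named genes of that type 4.44% were past it higher and 5.11% lower. The proteasome deubiquitinase Uchl5 read 1462 in the knockout against 940 in the wildtype (0.64), but 1795 and 2214 (-0.30) on the second type. The shuttle Ubqln2 read 653 and 427 (0.61), and 177 against a wildtype signal of 62.8 below the floor on the second, at least 1.33-fold higher. No test is given for it, since on the second type its knockout signal alone was above the floor.
The small lid subunit Sem1 read 10464 and 15620 (-0.58) and the deubiquitinase Usp14 read 564 and 842 (-0.58), both just under 1.5-fold. The shuttle Rad23b stood at 0.46. Of 8 such factors measured on the second type none passed 1.5-fold. Of 6 ubiquitin and activating enzyme genes only Uba6, an alternative activating enzyme, was measured, on the second type, where it read 800 and 1318 (-0.72).
None of 5 genes around the segregase Vcp, which extracts ubiquitin-tagged proteins from complexes and membranes, passed 1.5-fold on the first type, and none of 4 on the second. Vcp itself read 5400 and 4655 (0.21). The 5 measured regulators of proteasome genes also stayed within 1.5-fold, with a median of 0.13. Nfe2l1 read 2069 and 1897 (0.13), and Nfe2l2 read 462 and 452 (0.03). Ngly1, the glycosidase needed to activate Nfe2l1, read 4960 and 5655 (-0.19) on the second type.

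The core particle median lay below that of named genes, and the activator median above it, under equal trimmed means, quantile normalization and loess. The core particle median was 0.29 below the median of named genes above the floor in the values given here, 0.17 below under quantile normalization and 0.16 below under loess. The activator median was above that of named genes by 0.30, 0.25 and 0.24 in the same order. The activator group includes Psme3ip1, a binding protein, and leaves out the probe set that names Psme2 and Psme2b (-0.08). Spike-in scaling shifts all ratios of a type by 1 constant, apart from genes at the floor, so it gives no separate view of these differences between groups. Under it the core particle median changed sign, as given above.

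**Figure D4:**
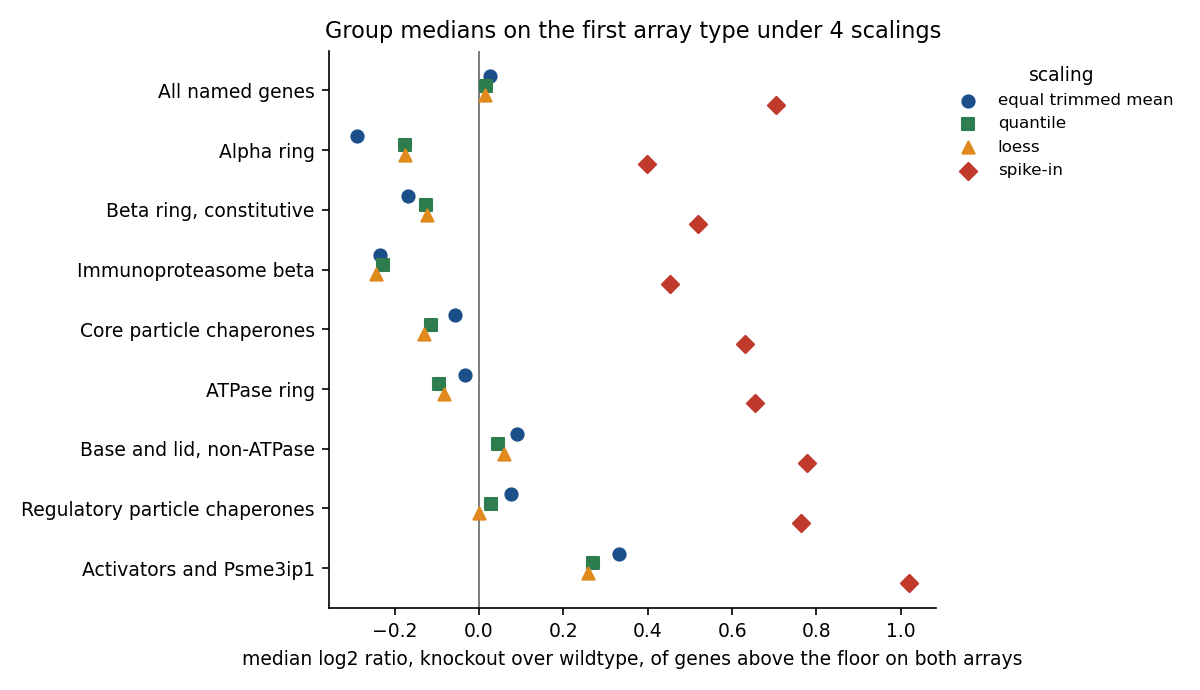
Median log2 ratio (horizontal axis, knockout over wildtype, first array type, genes above the floor on both arrays) of all named genes and of 8 groups of proteasome genes under 4 scalings, 1 marker per scaling. Under spike-in scaling every group moves right together with all named genes (0.70). Under the other 3 scalings the alpha ring lies left and the activators lie right of all named genes.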

How the data were processed

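RNA of whole newborn skin was biotin-labelled and hybridised to 4 arrays, per the labels: 1 of each genotype on each of 2 array types. The authors' deposited values are intensity signals per probe set on a linear scale, for which the submitters' processing notes name MAS5. Its version and settings were not given in the labels or files used here. The 2% trimmed means of all 4 columns lay between 500.2 and 500.4.

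From these intensities both arrays of each type were scaled to 1 common 2% trimmed mean, the 66 control probe sets were removed, and signals under the mean of the 40th percentiles were set to that floor. Each gene took its brightest probe set among those that name 1 gene. On the first type 8 members had several, and 14 of 58 member probe sets carried a suffix for shared sequence. All 48 members matched a symbol in the RefSeq gene table. No genome build applies to the arrays. Genes on both types, with a signal above the floor on each, were compared with limma 3.58.1 (lmFit and eBayes, array type as a block, Benjamini-Hochberg over all genes fitted). Each gene had 1 residual and 7.10 prior degrees of freedom. The steps were checked on simulated data. The number of arrays limits the precision.

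Values on each array are given for nearly all members. The rule took the immunoproteasome genes with their counterparts, the 5 highest and 5 lowest members per type, those past 1.5-fold, those on both types and the brightest of each role, and of other lists genes past 1.5-fold or the 2 brightest. Other genes were named after their values were seen. The members, lists, tests and alternatives were chosen with earlier results of these data known. The alternatives were 5 scalings, 3 floors, the value per gene, the probe set suffixes, the block, the members counted and the rule of size.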

Additional observations from a re-analysis of the deposited data

How the results depend on the processing

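Spike-in scaling moved nearly every value. The median log2 ratio of members became 0.58 (first type) and 0.27 (second), and the medians of the core particle, regulatory particle and activators 0.43, 0.68 and 1.02. Members past 1.5-fold became 23 higher with 0 lower for the first type, beside 3544 higher and 75 lower of 8251 named genes. For the second type they became 2 higher with 0 lower, beside 3006 higher and 119 lower of 7542. The core particle ratios below 0 became 0, immunoproteasome minus counterparts became -0.19, and limma passed 552 of 1263 genes. Psmb3 turned to 0.010 and the mean of Psmc6 to 0.065. Under quantile normalization and loess the core particle median was -0.15 in each, and limma passed 10 genes under loess, Psmc6 not among them. Under a floor at the 20th percentile, or none, 2 members of the first type and 1 of the second were past 1.5-fold higher. Among named genes 702 and 910 of 8251 were past it on the first type, and 893 and 1144 of 7542 on the second. Immunoproteasome minus counterparts was 0.29 and 0.28 in these settings. Under a floor at the 60th percentile limma passed 7 genes. With probe sets without a suffix it passed 1 (Sox11). Psmb7 has no such probe set, so immunoproteasome minus counterparts (-0.068) then set all immunoproteasome genes against Psmb5 and Psmb6 alone. That value is not a matched difference. The remaining pairs gave -0.26 for Psmb8 and 0.31 for Psmb9, which was below the floor. A 2-fold rule left 0 members in either direction on both types. Among named genes it left 69 higher and 114 lower of 8251 on the first, and 126 and 160 of 7542 on the second. Alternatives added after the data were seen included those of the core particle, regulatory particle and activator values and of the ratios of single genes, the removal of the pair of Psmb9 and Psmb6 (-0.10), and a filter on the mean log2 signal of each type, under which limma passed 1 gene (Sox11). The causes were not tested. Leaving out an array of a type left the other type alone, a value with no test (Psmc6 -0.71 to -0.49). The replicate titles carry no number, and with no block for the array type the adjusted p of Psmc6 from limma was 0.9995. Immunoproteasome genes were not measured on the second type, so that comparison was not run there. Of 195 recomputed values, 102 for the main and 51 for single-gene results stayed within the limits used. The limits were a move under 0.1 for a log2 value and 1.5 times for a count. Within them a value near 0 could change sign: immunoproteasome minus counterparts was 0.04 in the main values and -2.0e-05 under loess. Values as deposited and a median log2 ratio of 0 were nearly equal to the main scaling, so they could hardly move a value. A changed floor cannot move the ratio of a gene whose signals lie above it. Psmb9, Psmc4 and Psmd2 had no measured ratio in the main values, since both their signals lay below the floor. Whether little RNA or a weak probe set gave these low signals was not tested.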
